A study of Mus musculus with 4 samples.

Results

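The 10 genes described here encode parts of ER-associated degradation (ERAD), the route by which the endoplasmic reticulum (ER) disposes of proteins that do not fold. They are the Derlins Derl1, Derl2 and Derl3, the ubiquitin ligase Syvn1 with its partners Sel1l and Herpud1, and the glycan-reading factors Os9, Edem1, Edem2 and Edem3. They were taken by name, with no measured value in the rule, but they were chosen with earlier results of these data known. Their counts beside all genes are therefore descriptions. All 10 were measured, of 19938 genes in all. Each has 1 probe set that names a single gene, and each was above the expression floor on all 4 arrays. That floor was percentile 95 of the values of 1207 genes for chemosensory receptors (olfactory, vomeronasal and trace amine) on the same array.

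The study profiled epithelial cells sorted from crypts of the small intestine of adult mice after 2 days of tamoxifen. Zip7 KO mice were Zip7flox/flox and control mice were Zip7flox/+, so that the controls carry a floxed copy too; both carried villin-CreERT2, which acts throughout the intestinal epithelium, and Lgr5-EGFP-ires-CreERT2, which marks and recombines in Lgr5-expressing cells. Zip7 is Slc39a7, a transporter that moves zinc from the ER into the cytosol. The cells of each genotype were sorted on the reporter into a fraction labelled Lgr5-Hi and a fraction labelled Lgr5-Med (Lgr5-Mid in the titles), and each of the 4 groups has 1 array. The number of mice behind an array is not stated. No difference below could be set against a spread between animals, no test was run, and precision is limited by having 1 array in each group. All levels are log2 RMA values, and differences between them are log2 differences.

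Properties of the arrays bear on every value that follows. Under the label Lgr5-Hi, Slc39a7 itself was at 9.02 in Zip7 KO and 8.92 in control cells, and under Lgr5-Med it was at 8.22 in Zip7 KO and 8.61 in control cells. The sources used here do not say whether its probes fall within the deleted exons, so these values do not check the deletion. Lgr5 was lower under the label Lgr5-Hi, at 7.93 in Zip7 KO and 7.79 in control, than under Lgr5-Med, at 11.24 in Zip7 KO and 10.97 in control. The labels are kept as given. Xist was below the floor in both Zip7 KO arrays and at 11.64 and 11.84 in the controls, and the Y-linked Kdm5d, Uty and Eif2s3y had the reverse pattern, so that sex and genotype cannot be told apart; none of the 10 ERAD genes lies on X or Y. In sorted populations, a change in the share of a cell type and a change of RNA per cell cannot be told apart either.

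In ERAD, chaperones and lectins pick out a misfolded protein, a membrane complex feeds it back into the cytosol and tags it with ubiquitin, and the p97 ATPase (Vcp) pulls it out for the proteasome. The central complex is built around HRD1, the product of Syvn1. Many of its genes belong to the unfolded protein response, in which the transcription factors ATF6 and XBP1 raise ER capacity when the ER is under load. These factors are known to act through ER stress response elements, ERSE and ERSE-II, which pair a site for NF-Y with the letters CCACG. The crypt's Paneth and goblet cells, which secrete large amounts of protein, depend strongly on this system.

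The promoter windows of the 4 members with the largest genotype differences under the label Lgr5-Hi are shown because 3 of them hold such an element. The windows run from 250 bases before to 50 after the annotated start (RefSeq, build GRCm38.p6) and are written 5′ to 3′ along the gene; capitals mark the element. Derl3 lies at chr10:75893148-75893447 on the plus strand, Syvn1 at chr19:6046326-6046625 (plus), Herpud1 at chr8:94386179-94386478 (plus) and Sel1l at chr12:91849108-91849407 (minus).
Derl3: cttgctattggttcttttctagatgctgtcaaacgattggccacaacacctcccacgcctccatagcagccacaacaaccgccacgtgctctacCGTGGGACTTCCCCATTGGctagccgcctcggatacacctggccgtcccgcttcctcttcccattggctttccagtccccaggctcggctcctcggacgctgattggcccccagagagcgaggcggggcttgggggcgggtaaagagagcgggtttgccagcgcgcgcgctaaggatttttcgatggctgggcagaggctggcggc
Syvn1: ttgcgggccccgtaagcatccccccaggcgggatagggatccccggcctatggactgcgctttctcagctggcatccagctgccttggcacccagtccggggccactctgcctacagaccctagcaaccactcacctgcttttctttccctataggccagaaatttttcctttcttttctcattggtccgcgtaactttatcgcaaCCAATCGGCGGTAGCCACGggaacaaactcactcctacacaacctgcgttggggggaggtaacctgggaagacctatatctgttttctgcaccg
Herpud1: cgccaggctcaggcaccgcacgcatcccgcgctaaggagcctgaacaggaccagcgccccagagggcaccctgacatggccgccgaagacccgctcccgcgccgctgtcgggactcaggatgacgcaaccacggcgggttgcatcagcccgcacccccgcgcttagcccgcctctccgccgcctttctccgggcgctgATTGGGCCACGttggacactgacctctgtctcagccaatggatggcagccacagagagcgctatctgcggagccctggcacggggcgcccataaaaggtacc
Sel1l: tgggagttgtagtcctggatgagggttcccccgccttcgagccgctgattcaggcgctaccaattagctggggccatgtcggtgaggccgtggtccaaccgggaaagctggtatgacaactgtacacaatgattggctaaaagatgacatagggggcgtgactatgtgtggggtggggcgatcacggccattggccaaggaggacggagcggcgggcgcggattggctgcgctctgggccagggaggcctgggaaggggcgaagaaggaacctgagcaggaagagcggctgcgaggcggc

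ERSE was searched as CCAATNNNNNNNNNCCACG, ERSE-II as ATTGGNCCACG and the core of the unfolded protein response element (UPRE) as TGACGTGG, each on both strands. The elements differ in spacing, and each of the 3 windows holds a single match, so none overlap. Derl3 holds an ERSE on the reverse strand, from 156 to 138 bases before the start. Syvn1 holds a forward ERSE from 44 to 26 bases before it, and Herpud1 a forward ERSE-II from 52 to 42 bases before it. Only exact matches were counted. Sel1l, Os9, Edem1, Edem2, Edem3 and both windows of Derl2 hold no exact match, and Derl1 was not among the windows used here. The Sel1l window holds cgtggtccaac, which differs from a reverse ERSE-II in its last letter only. Near matches in other windows were not sought. Of 32851 windows in the table, 0.119% hold an ERSE, 0.0365% an ERSE-II and 0.676% the UPRE core. A match is a description of the letters and not of a bound site.

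The first question was how the ERAD genes differed by genotype in the cells labelled Lgr5-Hi. All 10 were higher in the Zip7 KO array, by 0.10 to 3.73 on the log2 scale with a median of 0.42, where 55.0% of the 11988 genes compared were higher and the median of all genes was 0.022. Of the 10, 4 were at least 1.5-fold higher (Derl3, Herpud1, Syvn1 and Sel1l), against 1.08% of all genes. Derl3 and Herpud1 were at least 2-fold higher, against 0.25% of all genes, and Herpud1 passed that size only narrowly. The middle 95% of all genes lay between -0.43 and 0.45, and these 4 genes and Edem1 lay above it.

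Among the Derlins, rhomboid-like membrane proteins thought to help substrates across the ER membrane, Derl3 stood apart. Derl3 was at 11.06 in Zip7 KO and 7.34 in control cells under the label Lgr5-Hi, and at 8.56 in Zip7 KO and 6.88 in control cells under Lgr5-Med. Both Zip7 KO arrays were thus above both controls. The difference of 3.73 (13.2-fold) under the label Lgr5-Hi ranked number 2 of 11988 genes, behind the Y-linked Eif2s3y, and that of 1.68 (3.21-fold) under Lgr5-Med ranked number 6 of 12243.

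Its paralogues, which are expressed more broadly, differed far less. Derl1 was at 9.68 in Zip7 KO and 9.34 in control under the label Lgr5-Hi, and at 9.09 in Zip7 KO and 9.11 in control under Lgr5-Med. Derl2 was at 8.54 in Zip7 KO and 8.28 in control under Lgr5-Hi, and at 8.20 and 8.13 in Zip7 KO and control under Lgr5-Med. For both genes the array labelled Lgr5-Hi from Zip7 KO was the highest and the control array labelled Lgr5-Hi came second. The genotype differences were 0.35 (Derl1) and 0.26 (Derl2) under the label Lgr5-Hi, and -0.025 (Derl1) and 0.074 (Derl2) under Lgr5-Med.

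The 3 genes of the HRD1 complex differed by 0.88 to 1.01 under the label Lgr5-Hi. Syvn1, the ligase, was at 10.64 in Zip7 KO and 9.74 in control under Lgr5-Hi, and at 9.31 in Zip7 KO and 9.37 in control under Lgr5-Med. Sel1l, the adaptor that stabilises HRD1 and links it to the luminal lectins, was at 10.38 in Zip7 KO and 9.50 in control under Lgr5-Hi, and at 9.21 and 9.20 in Zip7 KO and control under Lgr5-Med. For both, the Zip7 KO array labelled Lgr5-Hi was highest and the 2 arrays labelled Lgr5-Med were nearly level.

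Herpud1, a ubiquitin-like membrane protein that organises the HRD1 complex, kept a genotype difference under both labels. It was at 11.74 in Zip7 KO and 10.73 in control under Lgr5-Hi, and at 10.81 in Zip7 KO and 10.53 in control under Lgr5-Med. Both Zip7 KO arrays were above both controls, but the Zip7 KO array labelled Lgr5-Med was above the control array labelled Lgr5-Hi by less than 0.1. The genotype differences under the label Lgr5-Hi were 0.91 for Syvn1 (1.87-fold), 0.88 for Sel1l (1.84-fold) and 1.01 for Herpud1 (2.01-fold); under Lgr5-Med they were -0.061 for Syvn1, 0.011 for Sel1l and 0.28 for Herpud1. Quantile normalisation, median centring and removal of the trend on mean level each took Herpud1 below 2-fold (lowest 0.93).

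The 4 glycan readers and trimmers had a median genotype difference of 0.18 in the cells labelled Lgr5-Hi and of -0.16 in those labelled Lgr5-Med. Edem1, a mannosidase-like factor that trims N-glycans and so marks proteins for disposal, was at 10.86 in Zip7 KO and 10.36 in control under Lgr5-Hi, and at 9.79 in Zip7 KO and 9.82 in control under Lgr5-Med. Its relative Edem2 was at 8.69 in Zip7 KO and 8.58 in control under Lgr5-Hi, and at 7.93 in Zip7 KO and 8.22 in control under Lgr5-Med. In both genes the arrays labelled Lgr5-Hi lay above those labelled Lgr5-Med, whichever the genotype. Edem3, the third of these factors, was at 9.11 in Zip7 KO and 8.86 in control under Lgr5-Hi, and at 8.55 and 8.52 in Zip7 KO and control under Lgr5-Med.

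Os9 encodes the lectin that hands trimmed glycoproteins to SEL1L. It was at 9.77 in Zip7 KO and 9.67 in control under Lgr5-Hi, and at 9.18 in Zip7 KO and 9.49 in control under Lgr5-Med. Its 2 values under Lgr5-Hi were nearly level, and the lowest was the Zip7 KO array labelled Lgr5-Med. Under the label Lgr5-Hi the genotype differences were 0.50 for Edem1, 0.25 for Edem3, 0.12 for Edem2 and 0.10 for Os9. The smallest of these, those of Edem2 and Os9, shrank to as little as 0.05 for Edem2 and 0.011 for Os9 under other scalings. Under Lgr5-Med the differences were -0.030 for Edem1, 0.027 for Edem3, -0.29 for Edem2 and -0.31 for Os9.

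**Figure D1:**
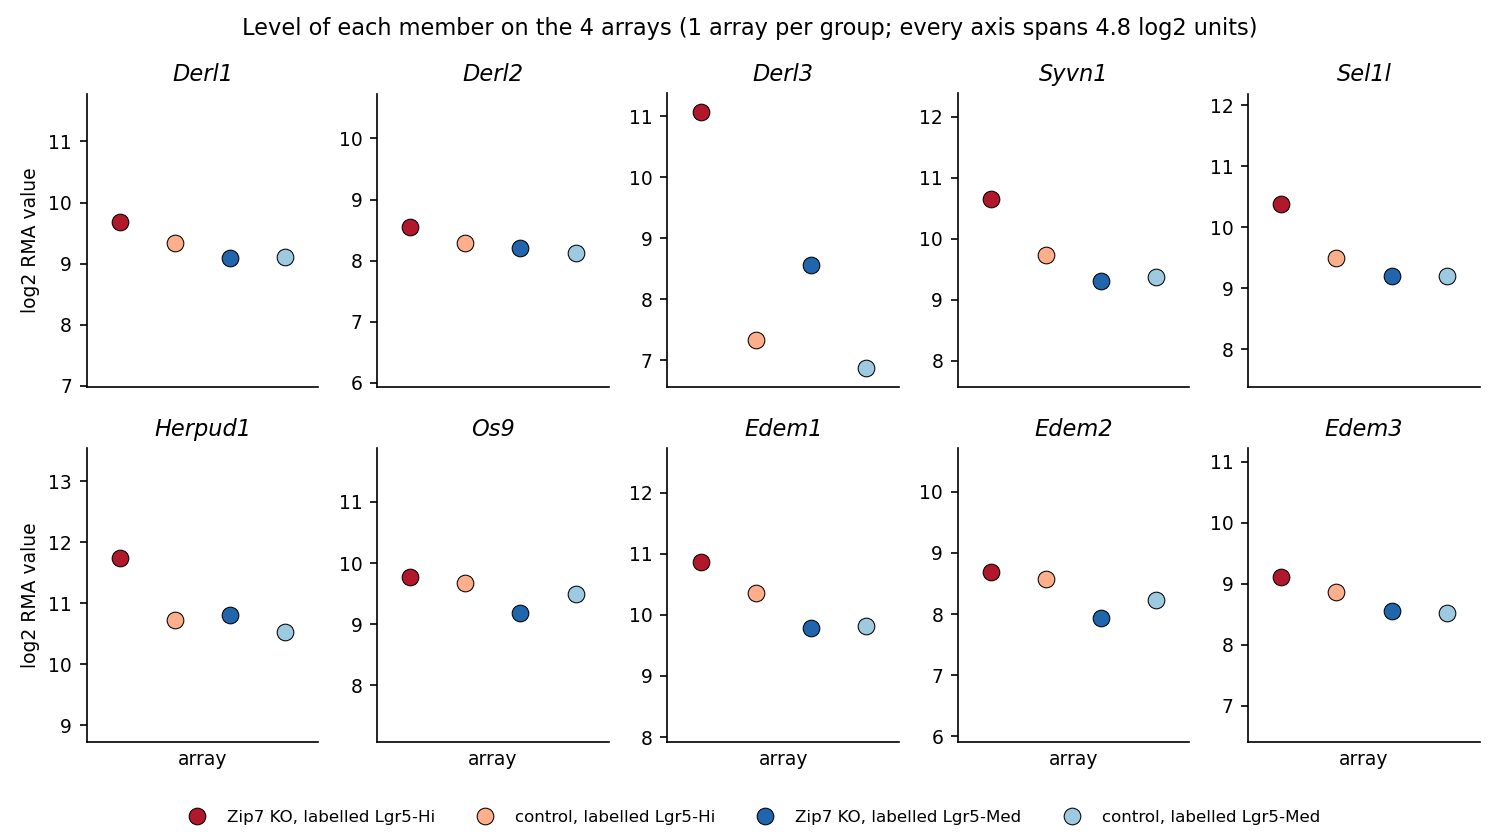
Level of each of the 10 ERAD genes (log2 RMA value, vertical axis) on each array, 1 point per array; every axis spans the same number of log2 units, and levels are to be compared within a gene only. The Zip7 KO array labelled Lgr5-Hi is the highest point in all 10 panels, and only Derl3 and, by a margin under 0.1, Herpud1 have both Zip7 KO points above both control points.

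The second question was the same comparison in cells labelled Lgr5-Med. Of the 10 genes 5 were higher in Zip7 KO and 5 lower, with a median of -0.0071 and a range from -0.31 to 1.68, where 44.1% of 12243 genes were higher (60.5% with median centring) and the median of all genes was -0.026. Derl3 was the only member at least 1.5-fold higher (0.425% of all genes) and the only member at least 2-fold higher (0.0653% of all genes). The middle 95% of all genes ran from -0.54 to 0.36, and the other 9 members lay inside it. With each array centred on its median, 8 of 10 were higher, Derl1, Syvn1 and Edem1 lying just below 0 as deposited and just above it once centred, so that no direction can be given for the members near 0 under this label.

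**Figure D2:**
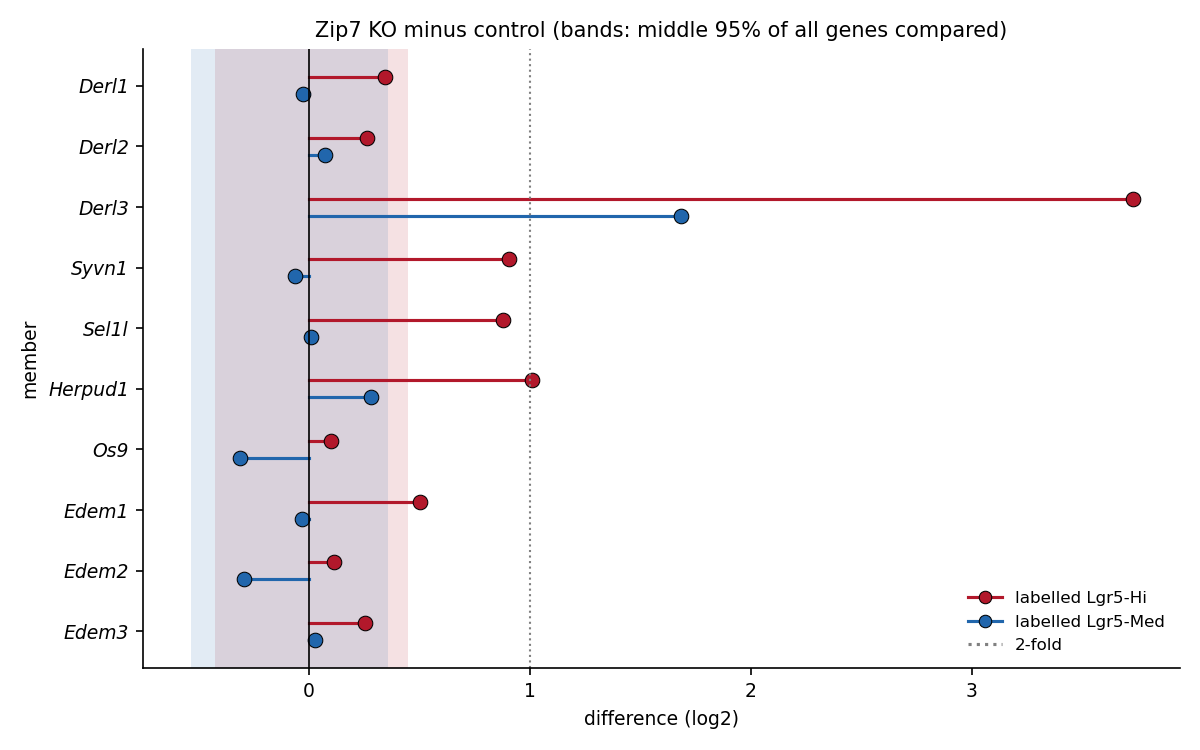
Zip7 KO minus control (log2, horizontal axis) for each member, in the arrays labelled Lgr5-Hi (red) and labelled Lgr5-Med (blue); shaded bands span the middle 95% of all genes compared and the dotted line marks 2-fold. Under Lgr5-Hi, 5 members lie beyond the band, and under Lgr5-Med only Derl3 does.

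The gap between the fractions, taken as the Lgr5-Hi genotype difference less the Lgr5-Med one, was above 0 for all 10 members, with a median of 0.47, where 60.5% of 11827 genes were above 0. The median gap of all genes was 0.057, or -0.055 with median centring, and the share above 0 was then 39.6% (49.1% with quantile normalisation). The gap was at least 1.5-fold for 4 members (Derl3 2.04, Syvn1 0.97, Sel1l 0.87 and Herpud1 0.73), against 2.34% of all genes. Derl3 ranked number 1 of the 11827 genes by this value. The smallest were Derl2 at 0.19 and Edem3 at 0.23. Enterocyte, Paneth and goblet markers had gaps of like size, and the other marker lists did not. All 15 enterocyte markers were above 0, with a median of 0.48 and Alpi (0.98) and Enpep (0.96) highest. So were 10 of 11 Paneth markers (median 0.54, Clps at 0.96 and Nupr1 at 0.91) and 8 of 11 goblet markers (median 0.46, Spink4 at 0.96 and Clca1 at 0.83). The enterocyte median was 0.019 under Lgr5-Hi and -0.44 under Lgr5-Med, against 0.42 and -0.0071 for the members. T cell and myeloid markers had a median gap of 0.16 (11 of 12 above 0) and enteroendocrine markers -0.049 (4 of 12). It was -0.14 for plasma and B cell markers (1 of 5) and -0.24 for tuft markers (0 of 9). For stem cell markers it was -0.25 (2 of 12), and for stromal and endothelial markers -0.20 (0 of 5). The gap rests on 1 array in each corner and was not tested.

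The third question was how the fractions differed within a genotype; these comparisons use the same 4 arrays as those above and are not independent of them. In Zip7 KO all 10 members were higher in the array labelled Lgr5-Hi, from 0.34 for Derl2 to a 5.67-fold difference for Derl3, with a log2 median of 0.85, where 49.3% of 12114 genes were higher. Of the 10, 8 were at least 1.5-fold higher, against 5.9% of all genes. Syvn1 differed by 1.33, Sel1l by 1.17, Edem1 by 1.07 and Herpud1 by 0.93.

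In controls the same direction held at a smaller size. All 10 members were higher under the label Lgr5-Hi, by 0.15 (Derl2) to 0.54 (Edem1), with a median of 0.32, where 43.3% of 12248 genes were higher (58.4% with median centring). None of the 10 reached 1.5-fold, against 2.3% of all genes, although Edem1 did so with median centring (0.62). Derl3 differed by 0.46 and Herpud1 by 0.20. All 10 kept this direction under every alternative run.

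**Figure D3:**
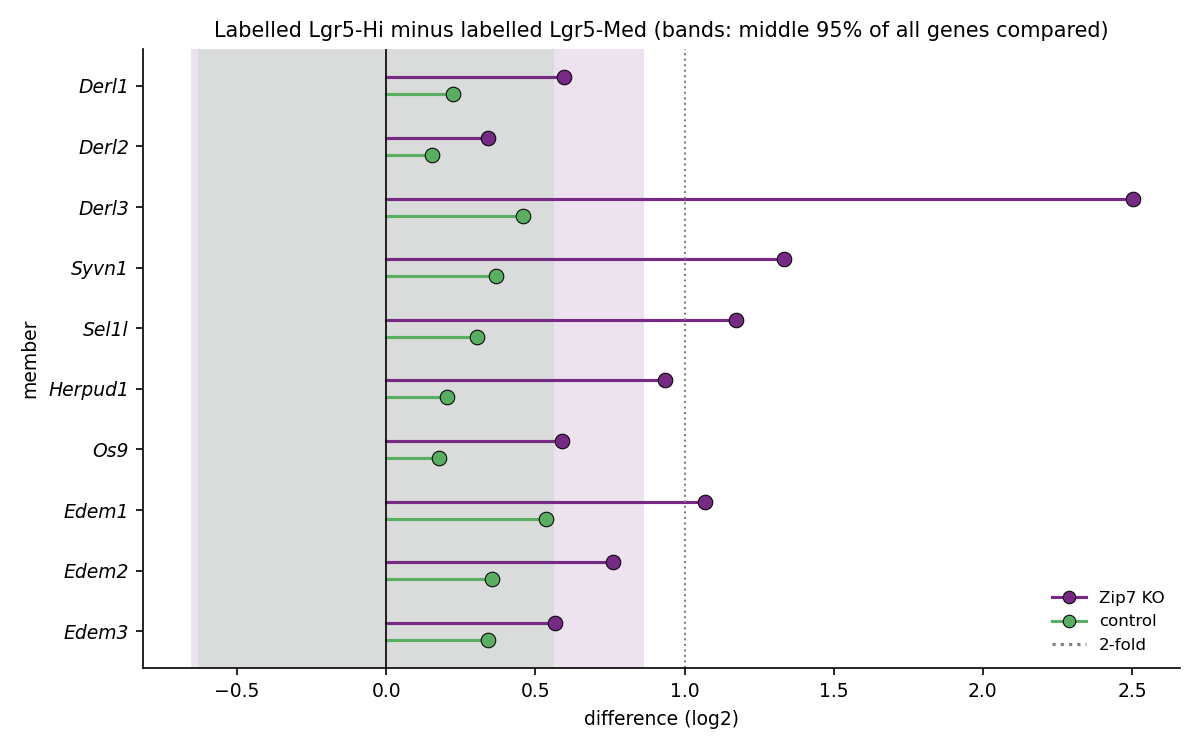
Difference of the array labelled Lgr5-Hi minus that labelled Lgr5-Med (log2, horizontal axis) for each member, in Zip7 KO (purple) and in control (green); bands span the middle 95% of all genes compared and the dotted line marks 2-fold. Every point is right of 0, and the Zip7 KO point is beyond the control point in all 10 members.

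Ordered by level within each gene, the Zip7 KO array labelled Lgr5-Hi was the highest of the 4 for 10 of 10 members, against 26.8% of the 12404 genes above the floor on any array. The control array labelled Lgr5-Hi came second for 8 members, and the Zip7 KO array labelled Lgr5-Med came second for Derl3 and, by less than 0.1, for Herpud1. The order of the arrays labelled Lgr5-Med, at the low end, rests on differences under 0.1 for Derl1, Derl2, Syvn1, Sel1l, Edem1 and Edem3.

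Markers of other cells moved with these comparisons, and their part in the members' values was not tested. Between fractions, 10 of 11 Paneth markers and 11 of 11 goblet markers were higher under the label Lgr5-Hi, in each genotype. The exception was Sox9, at -1.11 in Zip7 KO and -0.92 in control. Of all genes 49.3% were higher under Lgr5-Hi in Zip7 KO and 43.3% in control as deposited. The median of 11 Paneth markers was 1.33 in Zip7 KO and 0.99 in control, and that of 11 goblet markers 1.33 in Zip7 KO and 1.10 in control. The widest were Clps and Itln1 (both 2.03) and Clca1 (2.25) and Ccl6 (1.94) in Zip7 KO, and Itln1 (1.42), Ang4 (1.37), Ccl6 (1.48) and Clca1 (1.42) in control. The 12 enteroendocrine markers had medians of 2.54 in Zip7 KO and 2.57 in control, led by Sst (3.67 in Zip7 KO, 3.74 in control), Cck (3.48 in Zip7 KO) and Gip (3.49 in control). Lgr5 (-3.31 in Zip7 KO, -3.18 in control) and Gkn3 (-2.39 in Zip7 KO, -2.13 in control) led the 12 stem cell markers, which were all lower under Lgr5-Hi, with medians of -1.52 in Zip7 KO and -1.23 in control. Enterocyte markers had medians of 0.34 in Zip7 KO and -0.041 in control, tuft markers 0.39 in Zip7 KO and 0.70 in control, and stromal and endothelial markers -0.052 in Zip7 KO and 0.14 in control.

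Between genotypes most Paneth markers were lower in Zip7 KO, and goblet markers were mixed under the label Lgr5-Hi. Of all genes 55.0% were higher in Zip7 KO under Lgr5-Hi. Under Lgr5-Med 44.1% of all genes were higher as deposited, a share that median centring raised. Under the label Lgr5-Hi, 10 of 11 Paneth markers were lower in Zip7 KO with a median of -0.74, the protease Mmp7 at -1.55 and the lectin Reg3g at -1.29; the exception was Nupr1 at 0.68. Of 11 goblet markers 7 were lower, with a median of -0.24 and Atoh1 and Ccl6 lowest (-0.56 and -0.55); the 4 higher ones were Clca1 (0.45), Agr2 (0.27), Zg16 (0.16) and Sytl2 (0.029). Under Lgr5-Med, 11 of 11 Paneth markers were lower (median -1.33, Reg3g at -2.03 and Mmp7 at -1.89) and 10 of 11 goblet markers (median -0.38, Spink4 at -1.34 and Muc2 at -1.03). The summed Paneth marker signal, as log2, was 14.81 in Zip7 KO and 15.32 in control under Lgr5-Hi, and 13.78 in Zip7 KO and 14.78 in control under Lgr5-Med. For goblet markers it was 15.45 in Zip7 KO and 15.46 in control under Lgr5-Hi, and 13.99 in Zip7 KO and 14.44 in control under Lgr5-Med. Every one of these Paneth and goblet markers was above the floor on all 4 arrays. Of 15 enterocyte markers, 8 were higher in Zip7 KO under Lgr5-Hi (median 0.019), near the 55.0% of all genes. All 15 were lower under Lgr5-Med (median -0.44, Slc51b at -0.93 and Slc51a at -0.87).

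Immune cell markers were measured because Derl3 is known, in human tissue, from antibody-secreting plasma cells. Of 12 plasma and B cell markers with a probe set, 4 were above the floor in Zip7 KO and 5 in control under Lgr5-Hi, and 6 in Zip7 KO and 6 in control under Lgr5-Med. Igha, Ighm, Sdc1 and Cd79b were above it on all 4 arrays, Pou2af1 on 3 and Mzb1 on 2. Jchain, Tnfrsf17, Irf4, Cd79a, Ms4a1 and Prdm1 were at or below it on all 4. The summed signal of this list was 10.21 in Zip7 KO and 10.28 in control under Lgr5-Hi, and 10.34 in Zip7 KO and 10.28 in control under Lgr5-Med. This sum includes the genes at or below the floor, and Sdc1 (9.05 to 9.35) was its largest part on all 4 arrays. The widest genotype differences in it were those of Igha (-0.61) and Pou2af1 (-0.26) under Lgr5-Hi, and Pou2af1 (-0.22) and Sdc1 (0.19) under Lgr5-Med. Of the T cell and myeloid markers compared, 11 of 12 were lower in Zip7 KO under Lgr5-Hi (median -0.77, Gzmb at -1.47 and Gzma at -1.25). Under Lgr5-Med 13 of 14 were lower (median -0.94, Gzmb at -2.55 and Nkg7 at -1.55). The exception was the myeloid marker Cd68, at 0.23 under Lgr5-Hi and 0.29 under Lgr5-Med. Lyz2 was at -0.16 under Lgr5-Hi and -0.62 under Lgr5-Med. Of all genes 55.0% were higher in Zip7 KO under Lgr5-Hi and 44.1% under Lgr5-Med as deposited. The summed signal of the T cell and myeloid list was 11.64 in Zip7 KO and 12.20 in control under Lgr5-Hi. It was 11.42 in Zip7 KO and 12.41 in control under Lgr5-Med. Lyz2 (9.23 to 10.32) was its largest part on every array but the control labelled Lgr5-Med, where Ccl5 (10.41) was. Which cells carried this signal was not tested. Cd3d and Csf1r were below the floor on all 4 arrays.

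Other genes of the ERAD route mostly had small genotype differences. Of those analysed here, 55 were above the floor in the comparison. Under the label Lgr5-Hi 40 of these 55 were higher in Zip7 KO and 15 lower, with a median of 0.095, and none reached 2-fold. Of all genes 55.0% were higher, with a median of 0.022, and 0.25% were at least 2-fold higher. Under Lgr5-Med 30 were higher and 25 lower, with a median of 0.013, where 44.1% of all genes were higher, a share that median centring raised. Selenok, Uggt2, Fbxo2 and Usp13 were below the floor on all 4 arrays.

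Among 20 other ligases and membrane adaptors, 14 were higher in Zip7 KO under the label Lgr5-Hi (median 0.14), against 55.0% of all genes. Selenos, a selenoprotein that recruits p97 to the ER membrane, was the highest at 0.62, followed by Erlin1 at 0.40. Selenos alone of the 55 was past 1.5-fold, where 1.08% of all genes were at least 1.5-fold higher. The lowest of the 20 were Tmub2 at -0.19 and Tmub1 at -0.14. Under Lgr5-Med the extremes were Erlin1 at 0.19, Rnf145 at 0.18, Jkamp at -0.15 and Tmub2 at -0.35. Selenos was at 8.43 in Zip7 KO and 7.82 in control under Lgr5-Hi, and at 7.44 and 7.36 in Zip7 KO and control under Lgr5-Med, the same order as the Derlin Derl2.

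Of 10 further glycan recognition genes, 6 were higher in Zip7 KO under the label Lgr5-Hi, with a median of 0.019, near the 55.0% of all genes. Txndc11, a thioredoxin-like partner of the EDEM proteins, was at 0.31 and the mannosidase Man1a at 0.27, against Engase at -0.16 and Man2c1 at -0.09. Under Lgr5-Med Erlec1, a lectin related to OS9, was at 0.16 and Man1a2 at 0.11, against Engase at -0.25 and Man2c1 at -0.33.

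Of 25 genes of ubiquitin conjugation and p97 function, 20 were higher under the label Lgr5-Hi, with a median of 0.082, against 55.0% of all genes. The deubiquitinase Yod1, at 0.39, and the p97 cofactor Ufd1, at 0.35, led, and Vcp itself was at 0.085. Ubqln2 at -0.09 and Get4 at -0.08 were lowest. Under Lgr5-Med Ube2k, at 0.32, and Ube2g1, at 0.19, were highest and Ubxn6, at -0.40, and Usp19, at -0.27, lowest.

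The ER chaperones, which fold the proteins that ERAD would otherwise remove, were also higher in the Zip7 KO array labelled Lgr5-Hi. All 20 were above control, with a median of 0.63 and 3 at least 2-fold, Creld2 at 1.61, Sdf2l1 at 1.15 and Pdia4 at 1.12. Of all genes 55.0% were higher and 0.25% at least 2-fold higher. The lowest were Sil1 at 0.10 and Canx at 0.13. Under Lgr5-Med 17 of 20 were higher with a median of 0.18, against 44.1% of all genes as deposited. They ran from Sdf2l1 at 0.59 and Creld2 at 0.51 to Sil1 at -0.06 and P4hb at -0.23.

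The sensors and transcription factors of the unfolded protein response were mixed. Of all genes 55.0% were higher in Zip7 KO under Lgr5-Hi and 44.1% under Lgr5-Med. Under the label Lgr5-Hi 9 of 12 were higher in Zip7 KO with a median of 0.12, Atf6 at 0.61 and Ddit3 at 0.56 being highest and Ern2 at -0.16 and Creb3l1 at -0.21 lowest. Under Lgr5-Med 2 of 12 were higher with a median of -0.18, Ddit3 at 0.30 and Atf4 at 0.029, and the lowest were Ern2 at -0.43 and Creb3l3 at -0.60. The Xbp1 transcript, whose product is set by splicing that these values do not resolve, was at 0.13 under Lgr5-Hi and -0.20 under Lgr5-Med.

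**Figure D4:**
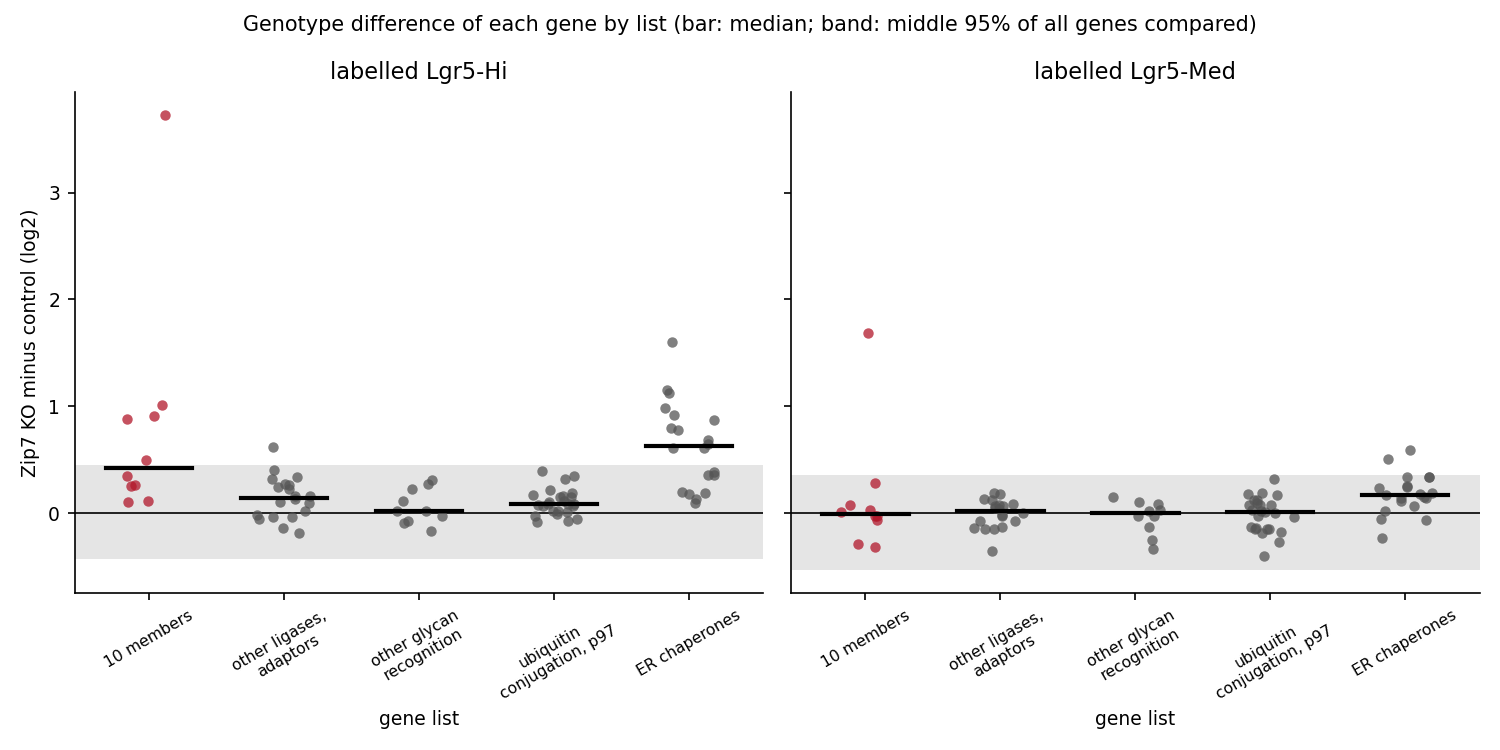
Zip7 KO minus control (log2, vertical axis) for every gene above the floor in the 10 members, the 3 lists of other ERAD genes and the ER chaperones, in the arrays labelled Lgr5-Hi (left) and Lgr5-Med (right); bars are list medians and the band spans the middle 95% of all genes compared. Under Lgr5-Hi the medians of the members (0.42) and of the chaperones (0.63) stand above those of the 3 other ERAD lists (0.14, 0.019 and 0.082).

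The elements printed above can be set beside these values. The 3 members with an ERSE or ERSE-II differed between genotypes by 0.91 to 3.73 under the label Lgr5-Hi. The 6 members with a window but no exact match to either differed by 0.10 (Os9) to 0.88 (Sel1l), with a median of 0.26. Syvn1, with an ERSE, and Sel1l, with no exact match to either, were within 0.1 of each other. With quantile normalisation Sel1l (0.80) was above Syvn1 (0.79). Under Lgr5-Med the 3 members ranged from -0.061 to 1.68 and the 6 from -0.31 to 0.074. Derl3 and Syvn1 both hold an ERSE, and under Lgr5-Med Derl3 differed by 1.68 and Syvn1 by -0.061. Whether the elements bear on these differences was not tested.

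The same elements occur in genes outside the 10. Of 23 other genes with either element that were compared under the label Lgr5-Hi, 19 were higher in Zip7 KO, with a median of 0.36 and 8 at least 1.5-fold higher. Among all genes 55.0% were higher and 1.08% at least 1.5-fold higher. Of these 23, 9 belong to the ER chaperone list, and of the other 14, 10 were higher with a median of 0.14. Under Lgr5-Med 14 of 22 were higher with a median of 0.069, where 44.1% of all genes were higher, a share that median centring raised. The UPRE core, in none of the 9 members with a window, was in 113 other genes compared under Lgr5-Hi. Of these 113, 66 were higher, with a median of 0.052, where 55.0% of all genes were higher.

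**Figure D5:**
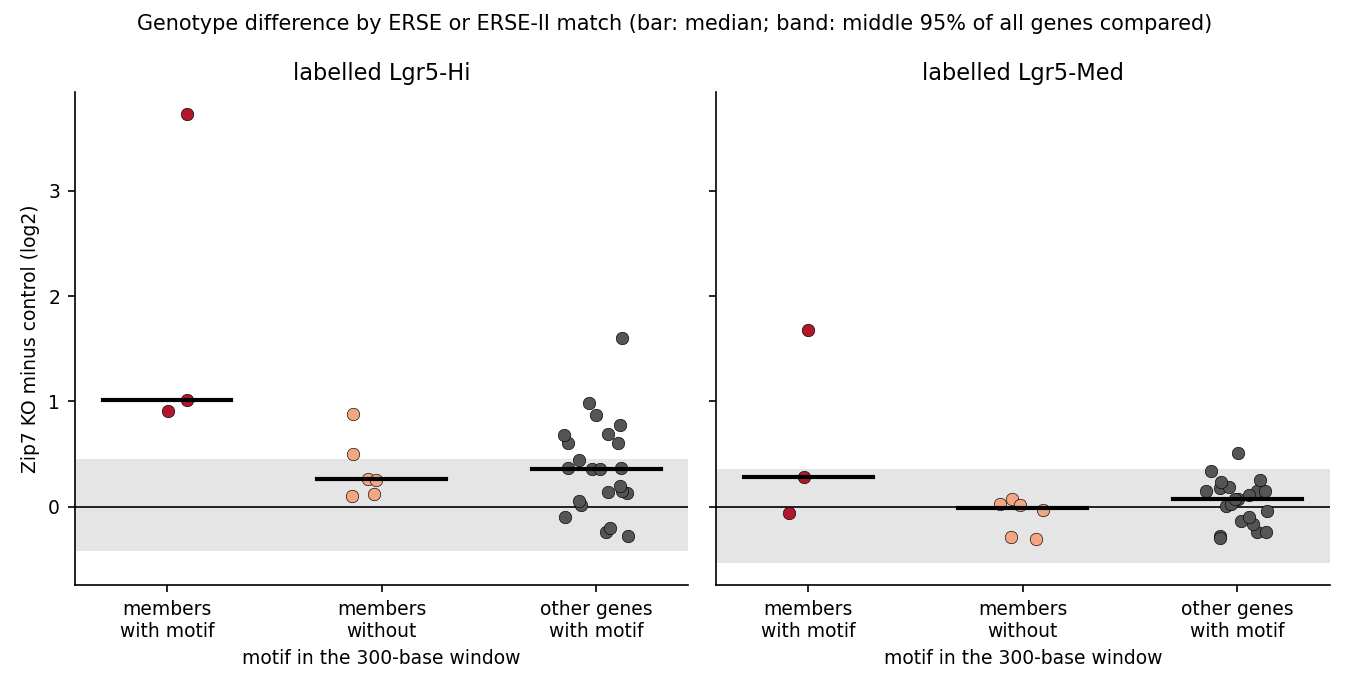
Zip7 KO minus control (log2, vertical axis) of the members with an ERSE or ERSE-II in the promoter window, of the members with a window and neither, and of other genes with either element, in the arrays labelled Lgr5-Hi (left) and Lgr5-Med (right); bars are medians and the band spans the middle 95% of all genes compared. Under Lgr5-Hi Derl3 and Herpud1 lie above the 6 members without an exact match, and Syvn1 (0.91) and Sel1l (0.88) lie side by side.

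Genes with the pattern most like a member were sought by the distance between their 4 values, each set minus its own mean, over the 12404 genes above the floor on any array. This distance counts the size of the differences as well as their order, and by it no gene came near Derl3. The 5 nearest were the Y-linked Kdm5d, Slc7a11, Creld2, Niban1 and Akr1c19, at distances of 1.72 to 1.99 log2 units. All of these but Akr1c19 had the same order of the 4 arrays as Derl3, but that order is weakly measured. Slc7a11 and Niban1 were above the floor only on the Zip7 KO array labelled Lgr5-Hi, and Kdm5d only on the Zip7 KO arrays. Order among values below the floor carries no information. Creld2 kept the order narrowly, at 10.19 in Zip7 KO under Lgr5-Med and 10.12 in control under Lgr5-Hi. For Herpud1 they were Bche, Atf5, 1700025G04Rik, Glipr1 and Acox2, at 0.10 to 0.15. Syvn1 and Sel1l were among each other's 5 nearest genes, at a distance of 0.12, and the chaperone Hyou1 was the gene nearest to Syvn1. For Derl2, Edem1, Edem2 and Os9 none of the 5 nearest genes was in a list used here. With 4 arrays such likeness is a description only.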

How the data were processed

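Gene expression was measured in 4 groups of sorted mouse crypt cells with 1 Affymetrix array each. The values the authors deposited are log2 values per probe set made with RMA, per the submitters' processing notes; the log base was taken from their range (3.08 to 14.6), while neither the software version nor which arrays were normalised jointly is stated in the sources used. All 4 columns were used (0 left out).

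Of 35557 probe sets, 21789 name 1 gene in the platform annotation, 1621 several and 12147 are not listed; only the first kind was used, and 21698 matched RefSeq (GRCm38.p6) by Entrez ID with 0 symbols changed. A gene's level was its probe set with the highest mean. Differences, in log2, were computed in Python 3.11.15 with numpy 2.4.6, pandas 2.3.3 and statsmodels 0.14.6 for genes above the floor (percentile 95 of receptor genes, 6.10 to 6.25) on either array compared; receptor genes were left out. Arrays correlated with r from 0.983 to 0.990 across probe sets. The functions were tested on simulated data.

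No test was run with 1 array per group. Sizes of 1.5-fold and 2-fold were counted. The members and lists were chosen with earlier results of these data known. All 10 members were named; of other lists, genes past 2-fold and the 2 highest and 2 lowest under each label; of marker lists, the 2 with the largest differences and defining markers below the floor; and the 5 genes nearest to members past 2-fold. Other named markers, Vcp, Xbp1 and Hyou1 were added after their values were seen. A protein comparison of the Derlins was not made. Alternatives covered scaling, trend, probe set rule, floor, filter and fold.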

Additional observations from a re-analysis of the deposited data

Results flagged for a closer look

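The genotype difference had opposite signs under the 2 fraction labels for 5 members, each with 1 array per group, and the difference between the labels was not tested. Of all genes 55.0% were higher in Zip7 KO under Lgr5-Hi and 44.1% under Lgr5-Med as deposited. How many of all genes had opposite signs was not counted, so this count cannot be called particular to the members. Syvn1 differed by 0.91 under Lgr5-Hi and -0.061 under Lgr5-Med, a gap of 0.97. Edem1 differed by 0.50 and -0.030 (gap 0.53), Os9 by 0.10 and -0.31 (0.41), Edem2 by 0.12 and -0.29 (0.41) and Derl1 by 0.35 and -0.025 (0.37), in the same order of labels. For Syvn1, Edem1 and Derl1 the value under Lgr5-Med lay so close to 0 that median centring made it positive. For Edem2 and Os9 it was negative under every alternative run.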

How the results depend on the processing

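A value was taken as unchanged if it moved by less than 0.1 on the log2 scale, and a count if it stayed within 1.5 times, since no spread between replicates exists. Of the members' recomputed medians and counts, 151 were unchanged and 9 moved, and no value past 2-fold changed sign. Quantile normalisation, median centring and removal of the trend on mean level each left 1 member (Derl3) past 2-fold in the cells labelled Lgr5-Hi in place of 2. Median centring put 8 members in place of 5 above 0 under Lgr5-Med. The median gap between the labels' genotype differences was 0.37 with quantile normalisation and 0.36 with median centring, against 0.47. At 1.5-fold in place of 2-fold, 4 members were past the size under Lgr5-Hi, 8 between the fractions of Zip7 KO and 4 for the gap. The near-zero median under Lgr5-Med turned positive with quantile normalisation (0.015), median centring (0.070) and the trend removed (0.0070). Derl3 stayed between 3.65 and 3.73 under Lgr5-Hi and between 1.68 and 1.76 under Lgr5-Med. No paired analysis was possible because each group has 1 array, and no replicate could be left out. Sex differs with genotype, and the size of a difference between animals is unknown.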
